A study of Homo sapiens with 12 samples.

Results

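The comparison asks how the RNA levels of BT549 cells changed when FOSL1 and JUN were knocked down while the cells were exposed to olaparib. BT549 is a human cell line from a triple-negative breast cancer, with mesenchymal features. The control group carried a pool of non-targeting siRNAs and the knockdown group carried siRNA pools against FOSL1 and against JUN, and both groups received olaparib. It was chosen by the labels: 3 control libraries and 3 knockdown libraries with olaparib, of 12 libraries in all. The other 6 libraries carried the same siRNAs with the solvent DMSO and serve here only to set a change beside its value without the drug. The labels give 48 h for the DMSO treatment and for the olaparib treatment of these groups. Of 27046 genes in the table, 12122 had more than 1 CPM (counts scaled to the library total) in at least 3 of the 12 libraries and were tested. Not given in the sources used here were the dose of olaparib, the amount of siRNA, the genome build and the strand setting of the counting. Knockdown cells received 2 targeting pools at once, so loss of FOSL1, loss of JUN and the joint load of siRNA cannot be told apart. Nothing in the labels says that the 3 libraries of a group came from separate cultures, so p-values measure only the spread between these libraries, which may be technical.

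AP-1 is a family of dimeric transcription factors in which a FOS protein pairs with a JUN protein on short DNA sites of the form TGAGTCA. FOSL1 encodes FRA-1, the FOS-family member best known from mesenchymal and invasive breast cancer lines, and JUN encodes its most common partner. Olaparib blocks PARP1 and PARP2, enzymes that mark DNA breaks with ADP-ribose chains, and cells treated with it rely on homologous recombination and on checkpoint kinases to finish replication. Interferon-stimulated genes are a set of antiviral genes switched on when RNA or DNA sensors in the cytosol, or interferon receptors at the surface, activate factors such as STAT2, IRF9 and IRF3. They are commonly recognised by an interferon-stimulated response element, a paired TTTC motif in the promoter.

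Library totals in the olaparib groups ran from 14728327 to 39715900 counts. The scaled values below are CPM adjusted by TMM factors, which put libraries of different composition on 1 scale. A change is a log2 fold change of knockdown over control with its standard error after the ± sign, and a mean CPM is followed by its standard deviation over 3 libraries. A gene is said to rise or fall where the adjusted p of edgeR's quasi-likelihood test was under 0.05. The markers of the labelled cell type were present: 8 of 8 basal B markers were tested and VIM, the intermediate filament of mesenchymal cells, had 4094 CPM in control cells with olaparib. With the knockdown 5 of these 8 markers fell and 1 rose, while 19.3% of all tested genes fell and 19.0% rose. The median level of these markers was 8.55 on the log2 CPM scale, beside 4.93 over all tested genes, and the part of that level in the falls was not tested. ESR1 and PGR, the hormone receptors missing from triple-negative lines, had 0 counts in all 6 olaparib libraries. Of 15 luminal and receptor-positive markers 6 passed the expression filter, among them ERBB2, GATA3, XBP1 and KRT18. Of 14 haematopoietic markers 2 passed the expression filter, CD14 and CD68, and of 10 endothelial markers 1 passed, TEK, while CD3D, CDH5 and KDR had 0 counts in every library.

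Both targeted genes fell in every knockdown library. FOSL1 (Entrez ID 8061, on chromosome 11) had 124, 136 and 117 CPM in the control libraries and 21.7, 22.3 and 19.2 CPM in the knockdown libraries. All knockdown libraries lay far below all control libraries, and the fall was 2.57 ± 0.081 on the log2 scale (adjusted p = 3.15e-14), which left 16.9% of the control level. JUN (Entrez ID 3725, on chromosome 1) had 157, 172 and 161 CPM in the control libraries and 49.8, 40.7 and 35.9 CPM in the knockdown libraries. Again the groups did not overlap, and JUN fell by 1.95 ± 0.1 (adjusted p = 1.82e-09), to 25.8% of control. FOSL1 stood at 71.6 CPM in the control cells without the drug and at 26.8 CPM in knockdown cells with DMSO. The control level was thus higher with the drug than without it, and the fall was larger under olaparib by 1.14 ± 0.11 on the log2 scale (interaction, adjusted p = 1.89e-05).

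Under olaparib, 2308 genes rose (19.0% of those tested) and 2335 fell (19.3%). Together these calls covered 38.3% of the tested genes and are the background against which the counts of each list are read. Most changes were small: the median change among called genes was 1.28-fold, and 166 rose and 183 fell at least 2-fold, 2.88% of the tested genes in both directions together. The 3 knockdown libraries lay wholly above the 3 control libraries for 3029 genes and wholly below them for 3073, 50.3% of the tested genes together. The median log2 fold change over all tested genes was 0.0081. The direction of the calls varied with the level of the gene: among 697 genes with an average above 8 on the log2 CPM scale, 75 rose (10.8%) and 310 fell (44.5%), while among 2410 genes between 2 and 4, 525 rose (21.8%) and 315 fell (13.1%). With DESeq2 size factors in place of TMM the abundant genes gave 75 and 313. Where most calls of a list were falls and its median level lay above 6 on the log2 CPM scale, that level is given below beside 4.93 over all tested genes, and its part in the falls was not tested. These are RNA levels in bulk cultures, in which fewer cells of one state and less RNA per cell cannot be told apart.

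**Figure D1:**
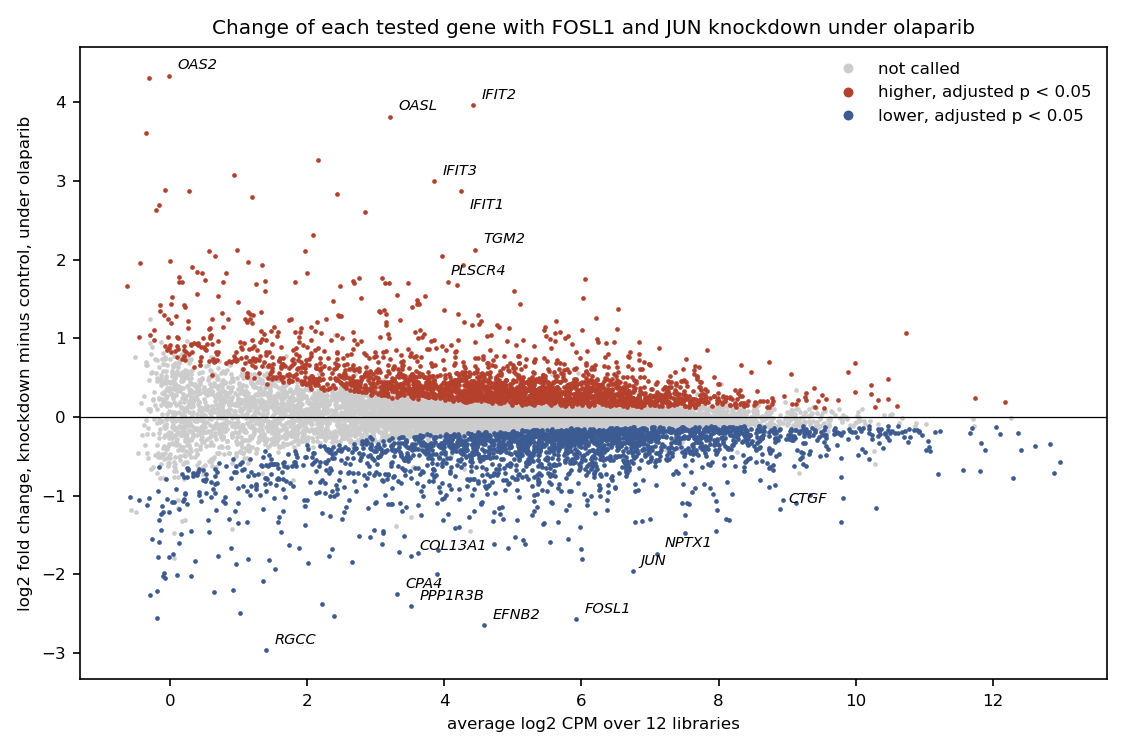
Each point is 1 of 12122 tested genes, with its average log2 CPM over 12 libraries on the x axis and its log2 fold change (knockdown minus control, under olaparib) on the y axis; red points rose and blue points fell at an adjusted p under 0.05. The largest rises at a moderate or high level were IFIT2 and OASL and the largest falls EFNB2 and FOSL1.

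The largest rises among well-expressed genes (average log2 CPM of 3 or more, no overlap between groups) were led by 4 antiviral genes. IFIT2, which encodes an RNA-binding protein that restrains viral translation, had 2.70, 3.15 and 3.12 CPM in the control libraries and 44.6, 46.5 and 49.6 CPM in the knockdown libraries. OASL, an oligoadenylate synthetase-like protein that enhances RIG-I signalling, had 1.03, 1.14 and 1.04 CPM in the control libraries and 16.0, 14.5 and 14.96 CPM in the knockdown libraries. Both genes were low in the control libraries and stood far above them in every knockdown library, and the log2 fold changes were 3.96 ± 0.11 and 3.82 ± 0.13 (adjusted p = 8.87e-15 and 5.22e-14). IFIT3, the partner that stabilises IFIT1 on viral RNA, had 3.73, 2.75 and 3.49 CPM in the control libraries and 25.1, 28.2 and 26.6 CPM in the knockdown libraries. IFIT1, which binds RNA lacking the cap methylation of the host, had 4.31, 5.56 and 6.25 CPM in the control libraries and 39.3, 40.1 and 40.6 CPM in the knockdown libraries. For both the lowest knockdown library was several times the highest control library, and their log2 fold changes were 3.00 ± 0.12 and 2.88 ± 0.10. The other rises named by the rule were of mixed function. TGM2, a transglutaminase that cross-links proteins, rose from 7.55 ± 0.366 to 33.0 ± 1.81 CPM, and PLSCR4, a phospholipid scramblase family member, rose from 5.36 ± 0.688 to 22.6 ± 2.98 CPM. PGF, a growth factor of the VEGF family, rose from 6.60 ± 0.160 to 25.1 ± 1.13 CPM, and SAMD9, an interferon-stimulated antiviral factor, rose from 3.16 ± 0.167 to 10.7 ± 1.46 CPM. RGS5, a regulator of G-protein signalling, rose by 1.71 ± 0.095, CLCA2, a chloride channel regulator, by 1.71 ± 0.12, and BRINP1, a neural growth regulator, by 1.70 ± 0.095.

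The largest falls began with EFNB2, the ephrin-B2 ligand of Eph receptors in cell contact and vessel growth, which had 64.1, 64.4 and 71.5 CPM in the control libraries and 10.0, 10.7 and 11.3 CPM in the knockdown libraries. All knockdown libraries lay far below all control libraries, and the fall was 2.64 ± 0.079 (adjusted p = 2.08e-14). CPA4, a secreted carboxypeptidase, had 14.2, 16.4 and 14.8 CPM in the control libraries and 2.72, 3.28 and 3.44 CPM in the knockdown libraries. PPP1R3B, which targets protein phosphatase 1 to glycogen, had 31.6, 33.9 and 32.7 CPM in the control libraries and 5.87, 6.41 and 6.13 CPM in the knockdown libraries. Neither gene's groups overlapped, and they fell by 2.25 ± 0.11 and 2.40 ± 0.095. NPTX1, neuronal pentraxin 1, was the most abundant gene of this set, with 327, 292 and 281 CPM in the control libraries and 95.9, 95.2 and 77.8 CPM in the knockdown libraries, a fall of 1.74 ± 0.084. The rest of the named falls were ADGRG1, an adhesion G-protein-coupled receptor (log2 fold change -1.99 ± 0.10), AMMECR1 of unsettled function, COL13A1, a transmembrane collagen, CCBE1, a secreted factor for lymphatic growth, PHLDA3, a p53-induced inhibitor of AKT, and CITED4, a transcriptional co-activator. COL13A1 dropped from 16.9 ± 1.59 to 4.92 ± 1.20 CPM, and the log2 fold changes of AMMECR1, CCBE1, PHLDA3 and CITED4 lay between -1.80 and -1.69. Among genes below that level, OAS2, HERC6 and CLDN2 had the largest rises (4.34, 4.31 and 3.61) and RGCC, ACTG2 and RTL9 the largest falls (-2.97, -2.56 and -2.53). OAS2 and HERC6 are interferon-stimulated and CLDN2 is a tight-junction protein. Control libraries held 0, 0.134 and 0.0905 CPM of OAS2, values that stand for a handful of reads, so the fitted fold change of such a gene depends on how few reads are smoothed.

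Of the lists with at least 9 tested members, the interferon list had the largest share that rose. 33 of 41 tested members of the type I interferon list rose and 1 fell, ISG20, with a median log2 fold change of 0.73 beside 0.0081 over all genes. SAMD9L and OAS2 stood under 1 CPM in every control library with olaparib. Such members can pass the expression filter through knockdown libraries alone, so their rise and their place in this share are linked. SAMD9L, a relative of SAMD9 that arrests translation, had 0.643, 0.603 and 0.770 CPM in the control libraries and 5.37, 6.84 and 7.55 CPM in the knockdown libraries, and its groups did not overlap. IFITM3, which blocks viral fusion, was chosen after its values were seen as the most abundant member, and it rose from 315 ± 10.9 to 469 ± 17.3 CPM. ISG15, a ubiquitin-like modifier and a standard marker of the response, had 32.0, 31.6 and 30.6 CPM in the control libraries and 42.2, 37.0 and 27.2 CPM in the knockdown libraries. In the third knockdown library it lay below all control libraries, and its log2 fold change of 0.18 ± 0.14 did not pass (adjusted p = 0.316), though it did with that library left out. IRF9, the DNA-binding subunit of the interferon-activated complex, did not pass either (0.07 ± 0.079, adjusted p = 0.522). Members below the expression filter included MX1, with 24 counts in the control and 60 in the knockdown libraries together, and RSAD2 with 4 and 20.

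To show where the motifs lie in the promoters of these genes, 250 bases before the transcription start are printed below from RefSeq (GRCh38.p14, gene strand), for the interferon list members with the largest called rises that have an entry, and for IFIT1, which was added after its values were seen. The last sequence belongs to CPA4, a named fall whose promoter held TGAGTCA. Capitals mark, in the first 4, the core of an interferon-stimulated response element (TTTC, any 2 bases, TTTC) and, in the last, TGAGTCA, the AP-1 site, each on either strand. The windows are chr10:89327747-89327996, plus strand for IFIT3, chr10:89392373-89392622, plus strand for IFIT1, chr7:93148386-93148635, minus strand for SAMD9L, chr4:88378602-88378851, plus strand for HERC6 and chr7:130292911-130293160, plus strand for CPA4.
IFIT3: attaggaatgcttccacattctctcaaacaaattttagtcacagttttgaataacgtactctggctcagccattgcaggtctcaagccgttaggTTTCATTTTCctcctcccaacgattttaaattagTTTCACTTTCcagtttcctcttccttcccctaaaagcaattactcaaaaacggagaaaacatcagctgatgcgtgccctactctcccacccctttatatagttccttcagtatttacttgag
IFIT1: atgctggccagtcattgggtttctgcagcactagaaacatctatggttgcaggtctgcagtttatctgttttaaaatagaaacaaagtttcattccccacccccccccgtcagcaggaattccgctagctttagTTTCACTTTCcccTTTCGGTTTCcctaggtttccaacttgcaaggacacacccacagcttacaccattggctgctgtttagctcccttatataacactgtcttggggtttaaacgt
SAMD9L: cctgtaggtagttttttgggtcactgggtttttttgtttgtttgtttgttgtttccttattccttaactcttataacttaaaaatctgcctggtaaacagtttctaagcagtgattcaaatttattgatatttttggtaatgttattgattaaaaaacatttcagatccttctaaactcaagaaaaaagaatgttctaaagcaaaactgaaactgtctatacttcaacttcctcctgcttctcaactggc
HERC6: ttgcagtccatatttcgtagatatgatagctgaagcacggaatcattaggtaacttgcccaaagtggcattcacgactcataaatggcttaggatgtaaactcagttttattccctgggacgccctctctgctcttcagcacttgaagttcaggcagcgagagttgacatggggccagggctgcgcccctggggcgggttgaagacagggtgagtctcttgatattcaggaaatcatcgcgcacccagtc
CPA4: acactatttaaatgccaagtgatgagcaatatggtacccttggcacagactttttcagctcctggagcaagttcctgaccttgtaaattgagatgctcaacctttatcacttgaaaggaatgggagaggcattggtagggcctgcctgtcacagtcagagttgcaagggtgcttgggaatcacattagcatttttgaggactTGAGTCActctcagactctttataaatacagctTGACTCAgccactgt
IFIT3 held 2 copies of the response element motif, beginning 156 and 122 bases before the start, and IFIT1 held 2, at 116 and 103 bases. SAMD9L and HERC6 had no match in this window. CPA4 held 2 copies of TGAGTCA, 48 and 15 bases before the start.

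Across promoters of 250 bases before to 50 bases after the start, on both strands, the response element core occurred in 2.58% of 9856 tested genes with an entry. It occurred in 4.24% of 1840 genes that rose, 2.51% of 1912 that fell and 12.2% of 115 that rose at least 2-fold. In the interferon list it was present in 19 of 28 promoters of members that rose (67.9%) and also in 6 of 8 of members that did not (75%). Its share was therefore no lower in members that did not rise. TGAGTCA occurred in 2.76% of all tested promoters, in 4.03% of those of genes that fell, in 8.46% of 130 that fell at least 2-fold and in 2.45% of those that rose and in 5.22% of those that rose at least 2-fold. In the interferon list it was present in 0 of 28 members that rose and in 2 of 8 that did not. Copies of the 2 motifs overlapped in 0 of these promoters. These are counts of letters in a window, not of bound sites, and they were not tested.

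**Figure D2:**
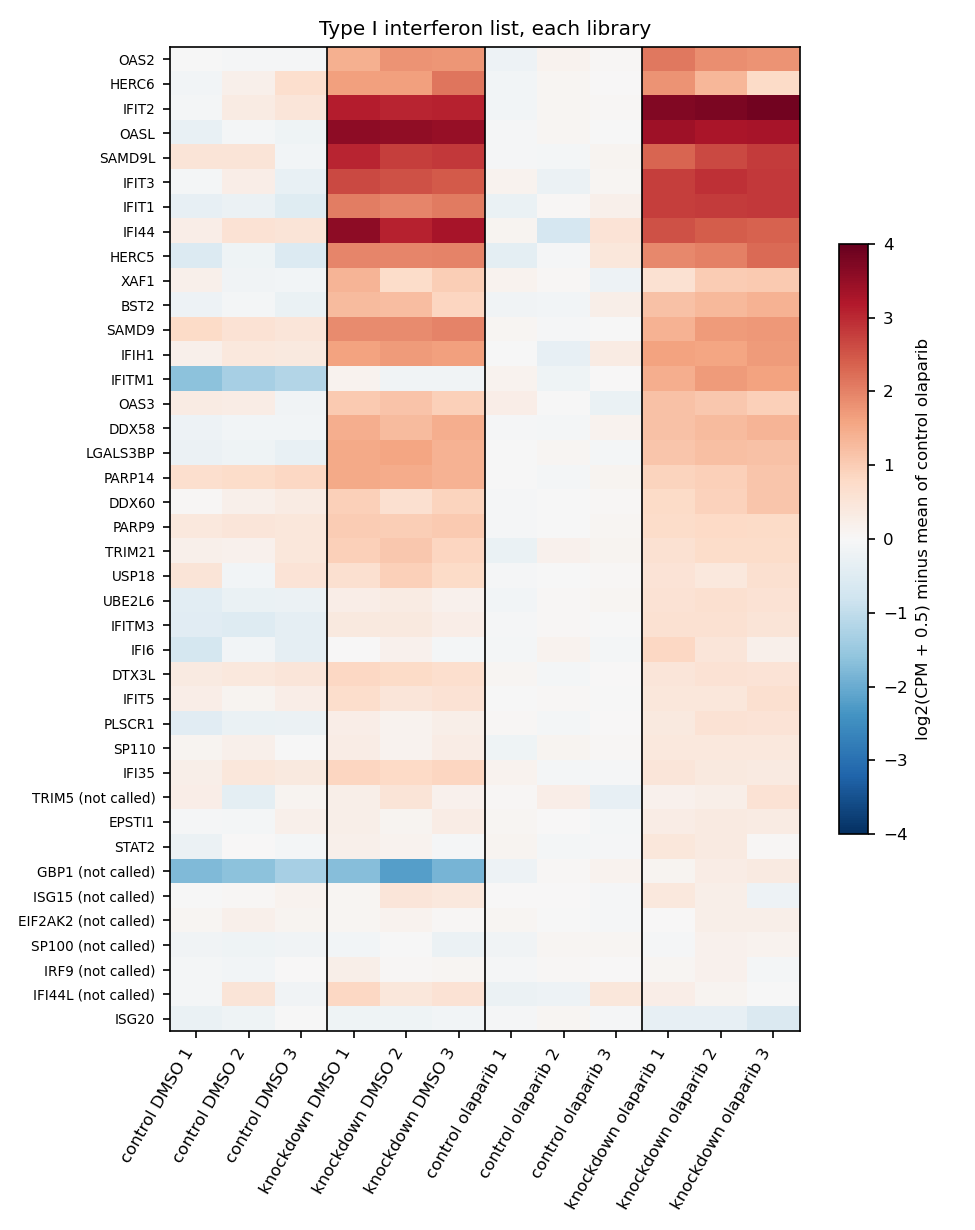
Each row is 1 of 40 of the 41 tested members of the type I interferon list, ordered by its log2 fold change under olaparib, and each column 1 of 12 libraries; colour gives log2(CPM + 0.5) minus the mean of the control olaparib libraries. The knockdown libraries of both treatments are red in the upper rows, and 7 members that were not called under olaparib are marked.

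Of the sensors of foreign or misplaced nucleic acid, 10 of 21 rose and 1 fell, TRIM25, with a median of 0.20. TMEM173, now called STING1, the adaptor that relays cytosolic DNA signals from cGAS, had 1.16, 1.74 and 1.58 CPM in the control libraries and 9.32, 9.36 and 8.63 CPM in the knockdown libraries. All knockdown libraries lay above all control libraries, and the rise was 6.07-fold (log2 fold change 2.60 ± 0.14, adjusted p = 3.09e-11). IFIH1, which encodes the double-stranded RNA sensor MDA5, had 2.51, 1.94 and 3.35 CPM in the control libraries and 8.71, 8.64 and 9.37 CPM in the knockdown libraries. DDX58, now RIGI, the sensor of short uncapped RNA, had 11.9, 11.7 and 13.7 CPM in the control libraries and 28.3, 30.8 and 32.9 CPM in the knockdown libraries. Both sensors rose in all 3 knockdown libraries, by 1.72 ± 0.14 and 1.29 ± 0.087. TLR3, the endosomal receptor of double-stranded RNA, rose from 1.10 ± 0.115 to 3.31 ± 0.438 CPM, and ENPP1, which degrades the second messenger made by cGAS, rose from 59.0 ± 2.59 to 128 ± 11.5 CPM. CGAS itself rose by 0.46 ± 0.16 (adjusted p = 0.0275) from 4.98 CPM, a call lost without the first or the second control library, without the first knockdown library and with counts thinned to the smallest library. IFIH1 and DDX58 are counted in the interferon list as well. The count of sensors that fell was 2 without the third control or the third knockdown library, without the third knockdown library with DMSO and in the fit of the 2 groups alone.

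Upstream of the response, the interferon genes IFNB1, IFNE, IFNL1, IFNL2 and IFNL3 did not pass the expression filter, and IFNB1 had 0 counts in all 12 libraries. Interferon genes outside the list were not looked at. In the list of interferon ligands, receptors and JAK-STAT genes 7 rose and 2 fell of 21 tested members, with a median log2 fold change of 0.15. The share called was 42.9%, near the 38.3% over all genes. Without the second or the third control library 4 rose and 1 fell, and 1 fell without the second or the third knockdown library. IRF1, a transcription factor that drives interferon-stimulated promoters, had 26.6, 30.7 and 30.2 CPM in the control libraries and 62.4, 62.8 and 58.8 CPM in the knockdown libraries, and it rose by 1.07 ± 0.07 with no overlap. IFNGR1, a subunit of the interferon-gamma receptor, rose from 102 ± 3.08 to 165 ± 11.9 CPM. SOCS1, which switches off JAK kinases, went the other way, with 1.74, 1.74 and 1.40 CPM in the control libraries and 0.741, 0.701 and 0.404 CPM in the knockdown libraries, a fall of 1.31 ± 0.30 at a low level. In DMSO the same gene had 1.254, 1.11 and 1.248 CPM in the control libraries and 1.40, 1.66 and 2.75 CPM in the knockdown libraries, so its change under olaparib differed from that in DMSO by -2.08 ± 0.39 (adjusted p = 0.00499).

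For antigen presentation by MHC class I, 4 rose and 2 fell of 11 tested members, with a median log2 fold change of 0.16. ERAP1 and ERAP2, the aminopeptidases that trim peptides for MHC class I, rose by 0.80 ± 0.059 and 1.24 ± 0.23, and CALR, a chaperone of MHC folding, fell by 0.33 ± 0.047. B2M, the shared light chain, did not pass (0.14 ± 0.074, adjusted p = 0.159). TAP1, PSMB9 and HLA-F are listed at 0 in all libraries, as is ABCF1, a translation factor gene of the same region that most cells use, so no level is read from them. Of the NF-kB targets and cytokines, 8 rose and 5 fell of 23. Without the second knockdown library 3 of them fell. CSF1, the growth factor of macrophages, had 42.9, 45.5 and 41.1 CPM in the control libraries and 115, 107 and 113 CPM in the knockdown libraries, and CCL2, the monocyte attractant, had 6.17, 8.04 and 7.06 CPM in the control libraries and 19.6, 20.2 and 22.2 CPM in the knockdown libraries. Both rose in every knockdown library, by 1.37 ± 0.056 and 1.54 ± 0.099. IL15, a survival cytokine of natural killer cells, rose by 0.82 ± 0.14, and SOD2, the mitochondrial superoxide dismutase, fell by 0.58 ± 0.042. The inhibitors NFKBIA and TNFAIP3, which report NF-kB activity, did not pass (0.0067 ± 0.086 and 0.12 ± 0.18).

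Members of the AP-1 family fell more often than they rose. 14 of 21 tested members fell and 2 rose, FOS and JDP2, with a median of -0.28. FOSL1 and JUN are among those that fell. No member passed as higher without the first or the second control library, without the third knockdown library or in DESeq2, and 1 did without any of 6 other libraries, with no filter on low counts and with thinned counts. CREB5, which binds JUN, had 18.3, 18.9 and 20.8 CPM in the control libraries and 10.1, 9.92 and 11.8 CPM in the knockdown libraries, a fall of 0.89 ± 0.092 without overlap. ATF3, a stress-induced partner of JUN, fell from 20.7 ± 1.30 to 12.8 ± 0.883 CPM, and FOSB, another FOS protein, fell from 5.73 ± 0.328 to 3.66 ± 0.368 CPM. FOSL2, the closest relative of FOSL1, fell by 0.54 ± 0.051 and remained at 166 CPM, above what was left of FOSL1. FOSL2 stands outside the rule for named genes and was chosen after its values were seen.

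Genes described as AP-1 or FRA-1 targets elsewhere fell more often than they rose: 3 rose and 16 fell of 27 tested members, with a median log2 fold change of -0.24 and a median level of 6.45 on the log2 CPM scale. MMP1, the interstitial collagenase and a classic AP-1 target, had 40.05, 39.6 and 39.98 CPM in the control libraries and 18.1, 16.4 and 17.5 CPM in the knockdown libraries, and fell by 1.21 ± 0.087. DUSP1, a phosphatase that switches off stress kinases, had 78.5, 72.1 and 69.8 CPM in the control libraries and 33.8, 30.1 and 28.8 CPM in the knockdown libraries, and fell by 1.251 ± 0.073. MYC, the growth-promoting transcription factor, had 466, 438 and 434 CPM in the control libraries and 247, 238 and 229 CPM in the knockdown libraries. For these 3 genes no knockdown library reached any control library, and MYC fell by 0.91 ± 0.049 (adjusted p = 3.81e-11). HBEGF, a ligand of EGFR, fell by 1.02 ± 0.16, and PLAU and PLAUR, the urokinase and its receptor, fell by 0.24 ± 0.046 and 0.37 ± 0.048. CCND1, the G1 cyclin often listed as induced by AP-1, rose from 28.1 ± 0.818 to 46.1 ± 2.66 CPM. CLCA2, named above, rose from 5.44 ± 0.620 to 17.9 ± 0.847 CPM.

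**Figure D3:**
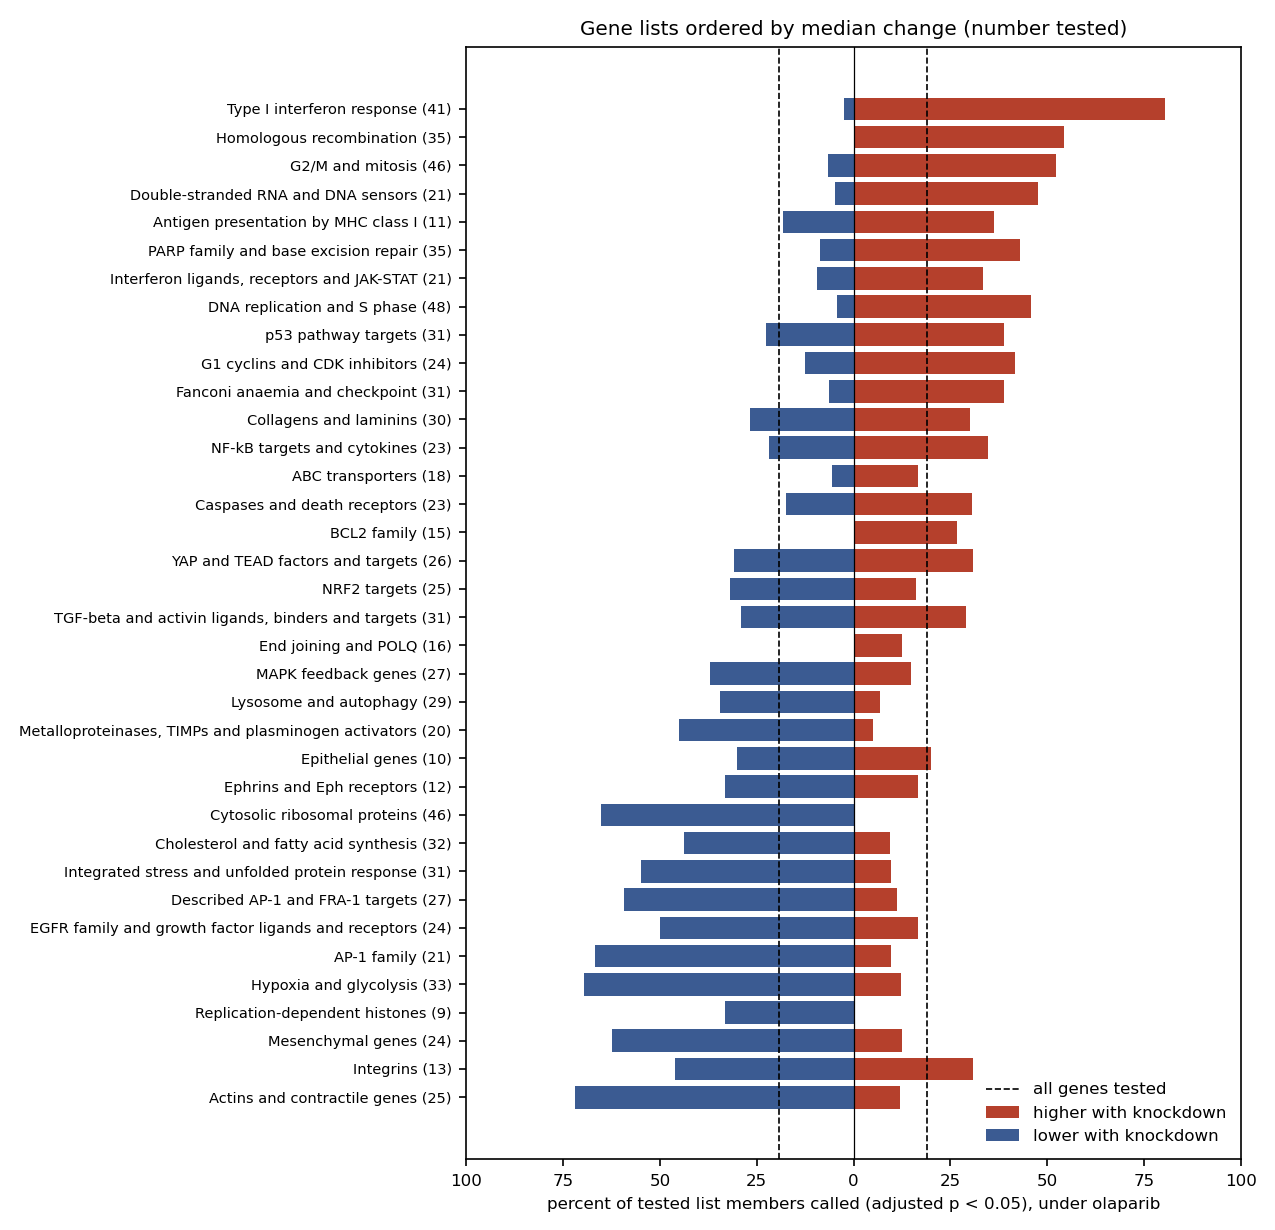
For each gene list with at least 9 tested members, red bars give the percent of tested members that rose and blue bars the percent that fell under olaparib (adjusted p under 0.05), ordered by the list's median change, with the number tested in brackets; dashed lines mark 19.0% and 19.3%, the shares over all genes. The type I interferon list is the most red and the list of actins and contractile genes has the lowest median.

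Contractile and mesenchymal genes fell more often than they rose. Of the actins and contractile genes, 18 of 25 fell and 3 rose, and the median was -0.40. The list has a median level of 9.19 on the log2 CPM scale. TAGLN, the actin-bundling transgelin of smooth muscle, had 77.9, 105 and 95.6 CPM in the control libraries and 35.3, 34.3 and 40.2 CPM in the knockdown libraries. MYH9, the heavy chain of non-muscle myosin, had 2124, 2105 and 2066 CPM in the control libraries and 939, 959 and 934 CPM in the knockdown libraries. SRF, the factor that controls these genes together with its co-activators, had 152, 143 and 146 CPM in the control libraries and 69.95, 63.7 and 60.1 CPM in the knockdown libraries. The groups did not overlap for any of the 3, and the falls were 1.35 ± 0.15, 1.15 ± 0.054 and 1.19 ± 0.064. ACTG1, cytoplasmic gamma-actin, fell from 10810.0 ± 83.8 to 6622 ± 7.09 CPM, and MYL9, the regulatory light chain, by 0.43 ± 0.077. ACTA2, smooth muscle actin, had a lower count by 1.33 ± 0.065, but ACTA2-AS1 runs antisense to it and without a known strand setting the reads of both cannot be told apart. TPM1, a tropomyosin, did not pass (-0.056 ± 0.084, adjusted p = 0.635).

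Among mesenchymal genes, whose median level was 7.41, 3 rose and 15 fell of 24 tested members, with a median log2 fold change of -0.36. VIM had 4069.6, 4149.8 and 4062 CPM in the control libraries and 2759.7, 2509 and 2438 CPM in the knockdown libraries, a fall of 0.67 ± 0.053 in one of the most abundant RNAs. NT5E, the surface enzyme CD73 that makes adenosine, had 379, 368 and 364 CPM in the control libraries and 183, 187 and 194 CPM in the knockdown libraries. LOX, which cross-links collagen, fell from 603 ± 16.6 to 332 ± 7.03 CPM, and AXL, a receptor kinase tied to drug tolerance, fell from 442 ± 9.03 to 274 ± 2.96 CPM. VIM, NT5E, LOX and AXL were each lower in all 3 knockdown libraries. ZEB1, the repressor of epithelial genes, fell by 0.42 ± 0.059, while CDH2, N-cadherin, did not pass (-0.073 ± 0.061, adjusted p = 0.369). The counterpart did not appear as a group: 2 of 10 tested epithelial genes rose and 3 fell. KRT7 and KRT18, simple epithelial keratins, rose by 1.08 ± 0.16 and 0.77 ± 0.07, DSP, a desmosome protein, fell by 0.79 ± 0.10, and CDH1, E-cadherin, had 0.793 CPM in control and 1.22 CPM in knockdown cells and did not pass (adjusted p = 0.122).

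The matrix and its receptors changed in both directions. Of integrins 4 rose and 6 fell of 13. ITGB3, the beta subunit of the vitronectin receptor, had 13.1, 9.78 and 9.24 CPM in the control libraries and 2.96, 3.38 and 3.57 CPM in the knockdown libraries, a fall of 1.68 ± 0.15. Its alpha partner ITGAV rose from 143 ± 2.58 to 216 ± 15.4 CPM, and ITGA6, a laminin receptor, fell from 405 ± 4.76 to 279.8 ± 17.4 CPM. Among collagens and laminins 9 rose and 8 fell of 30. COL1A2, COL3A1 and COL15A1, fibrillar and basement-membrane collagens, rose by 0.93 ± 0.11, 0.55 ± 0.11 and 0.70 ± 0.083, and FN1, fibronectin, fell from 699.6 ± 18.4 to 377 ± 12.0 CPM. Without the first or the second control library 4 collagens and laminins rose. Of proteases and their inhibitors, at a median level of 7.06 on the log2 CPM scale, 1 rose and 9 fell of 20; the rise was TIMP3, a matrix-bound inhibitor, with 8.48, 8.84 and 7.83 CPM in the control libraries and 22.2, 22.6 and 25.9 CPM in the knockdown libraries, and ADAMTS1, a protease of proteoglycans, fell from 8.68 ± 0.740 to 2.42 ± 0.239 CPM. Without the first knockdown library 2 of this list rose. For ephrins and their receptors 2 rose and 4 fell of 12 tested members, with a median log2 fold change of -0.14, and EFNB2, described above, had by far the largest change. The count of ephrins and receptors that rose was 1 in DESeq2, in the fit of the 2 groups alone, with no filter on low counts, with thinned counts and without any 1 of 7 libraries, and the median was -0.05 without the third knockdown library.

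Growth factor genes fell more often than they rose. In the list of the EGFR family, growth factors and receptors 4 rose and 12 fell of 24 tested members, with a median log2 fold change of -0.26. The count that rose was 2 without the second or the third control library and without the second knockdown library. EGFR itself had 184, 169.6 and 166 CPM in the control libraries and 116, 121 and 119 CPM in the knockdown libraries, lower in every knockdown library by 0.55 ± 0.083 in all. FGF5, a fibroblast growth factor, fell from 12.9 ± 0.498 to 5.80 ± 1.03 CPM, and VEGFC, the ligand of lymphatic growth, fell by 0.86 ± 0.14. In the list of MAP kinase feedback genes 10 of 27 fell and 4 rose. Its ends were EGR3 (-2.21) and CCND1 (0.71), so the list is not limited to inhibitors of the pathway. DUSP5, a nuclear ERK phosphatase, had 67.7, 71.1 and 69.0 CPM in the control libraries and 32.5, 33.1 and 33.3 CPM in the knockdown libraries, a fall of 1.07 ± 0.061, and DUSP4 and DUSP6, which also act on ERK, fell by 0.45 ± 0.052 and 0.38 ± 0.068. SPRY2, a receptor-level inhibitor, rose by 0.50 ± 0.048. For TGF-beta and activin genes 9 rose and 9 fell of 31, with BMP6, a bone morphogenetic protein, down from 81.0 ± 3.99 to 36.8 ± 2.12 CPM and TGFBR3, the co-receptor betaglycan, up by 0.73 ± 0.064. For YAP and TEAD genes 8 rose and 8 fell of 26. CTGF, now CCN2, a matricellular YAP target, had 1119.8, 1079 and 1196 CPM in the control libraries and 493, 480.1 and 537 CPM in the knockdown libraries, a fall of 1.17 ± 0.06, and CYR61, now CCN1, fell by 0.44 ± 0.043, while AJUBA, a LIM protein that restrains LATS kinases, rose from 17.2 ± 1.36 to 37.4 ± 2.70 CPM.

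Many genes of homologous recombination, replication and mitosis rose by small amounts. Homologous recombination, the pathway on which cells depend when PARP is blocked, had 19 of 35 tested members higher and 0 lower, with a median of 0.26. BRCA1, which directs broken ends into recombination, had 35.8, 33.1 and 36.1 CPM in the control libraries and 45.1, 47.0 and 51.8 CPM in the knockdown libraries. BRCA2, which acts in strand exchange, had 7.71, 7.501 and 7.97 CPM in the control libraries and 10.99, 9.79 and 10.2 CPM in the knockdown libraries. All knockdown libraries exceeded all control libraries for both, with rises of 0.45 ± 0.069 (adjusted p = 3.91e-05) and 0.41 ± 0.11 (adjusted p = 0.00807). In homologous recombination 1 member fell without the second control library, without the third knockdown library or with thinned counts. XRCC2, a factor of strand exchange, GEN1, a resolvase, and BRIP1, a helicase partner of BRCA1, rose by 0.82 ± 0.16, 0.61 ± 0.14 and 0.51 ± 0.10. RBBP8, the end-resection factor CtIP, did not pass (0.071 ± 0.063, adjusted p = 0.400). In the Fanconi anaemia and checkpoint list 12 rose and 2 fell of 31. No member of it fell without the second knockdown library, and 1 fell without any 1 control library. FANCD2 and FANCI, the pair that is ubiquitylated at crosslinks, rose by 0.34 ± 0.066 and 0.47 ± 0.057, and CLSPN, which couples ATR to CHK1, rose from 23.8 ± 0.194 to 38.4 ± 1.59 CPM, while ATR and CHEK1 did not pass (0.026 ± 0.066 and 0.05 ± 0.063).

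Of the PARP family and base excision repair genes 15 rose and 3 fell of 35. PARP1, the main target of the drug, had 365, 376 and 357 CPM in the control libraries and 406, 404 and 394 CPM in the knockdown libraries, a rise of 0.13 ± 0.044 (adjusted p = 0.0229) whose call was lost without the first or the third control library and without the first or second knockdown library. PARP2, the other target, rose by 0.35 ± 0.06, and PARG, which removes ADP-ribose chains, by 0.37 ± 0.064. The largest change in the list was that of PARP10 and PARP14, interferon-stimulated mono-ADP-ribosyltransferases (1.71 ± 0.31 and 0.99 ± 0.073), and PARP14 is also counted in the interferon list. End joining stood below the background, with 2 of 16 higher and 0 lower. With thinned counts, in the fit of the 2 groups alone and without the second control or the first knockdown library with DMSO 1 fell. One of them was POLQ, the polymerase of microhomology-mediated joining, which had 31.9, 27.4 and 34.2 CPM in the control libraries and 49.3, 53.9 and 52.7 CPM in the knockdown libraries, a rise of 0.73 ± 0.089 without overlap, and the other LIG4, the ligase of classical joining (0.52 ± 0.13).

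Of 48 DNA replication genes 22 rose and 2 fell, MCM5 and PRIM2, with a median of 0.14; the count that rose was 14 without the second control library, and 1 fell without the first or the second control library and without the second or the third knockdown library. FEN1, the flap endonuclease of lagging-strand synthesis, and POLA1, the polymerase that starts each fragment, rose by 0.42 ± 0.052 and 0.42 ± 0.061, and the helicase subunit MCM2 did not pass (0.0021 ± 0.051, adjusted p = 0.978). In G2/M and mitosis 24 rose and 3 fell of 46, and the median was 0.23. CENPE, the kinesin that carries chromosomes to the spindle equator, had 42.6, 37.6 and 47.2 CPM in the control libraries and 63.0, 67.2 and 84.5 CPM in the knockdown libraries. In DMSO it had 72.9, 85.4 and 59.4 CPM in the control libraries and 68.3, 63.6 and 66.9 CPM in the knockdown libraries. The control libraries with olaparib were thus the low ones and the knockdown libraries with olaparib stood near both DMSO groups. TOP2A, topoisomerase II, rose from 1174 ± 60.5 to 1468 ± 139 CPM, and KIF15, a spindle kinesin, rose from 55.6 ± 3.18 to 78.2 ± 4.27 CPM. CDK1, the mitotic kinase, and CCNB1, its cyclin, rose by 0.29 ± 0.064 and 0.19 ± 0.054. MKI67, the proliferation antigen, had a change of 0.42 ± 0.15 that did not pass (adjusted p = 0.0574) but did in DESeq2 (0.41 on the log2 scale) and in the fit of the 2 groups alone. Of G1 genes 10 of 24 rose and 3 fell: CCNE2, a cyclin of the G1/S transition, rose from 13.3 ± 1.04 to 27.7 ± 3.01 CPM, and CDKN1A, the CDK inhibitor p21, fell from 58.4 ± 0.795 to 38.5 ± 2.13 CPM. Of 9 tested replication-dependent histone genes 3 fell and 0 rose, 33.3% called beside 38.3% over all genes. Those that fell were HIST2H2BE, HIST1H1C and HIST1H2BK, whose reads may be shared with near-identical copies.

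Stress and death genes changed in both directions. Called were 61.3% of p53 targets, 47.8% of caspases and death receptors and 26.7% of the BCL2 family, beside 38.3% over all genes. Of p53 targets 12 rose and 7 fell of 31, and 6 rose without the second control library or without the second knockdown library. GADD45A, a stress-induced gene, had 76.2, 71.5 and 69.9 CPM in the control libraries and 38.2, 31.1 and 25.4 CPM in the knockdown libraries, a fall of 1.20 ± 0.11, and AEN, a p53-induced nuclease, fell by 1.02 ± 0.072. GDF15, a stress cytokine, did not pass (0.084 ± 0.20, adjusted p = 0.781). In the BCL2 family 4 of 15 rose and 0 fell. BCL2L11, which encodes the death-promoting protein BIM, had 38.5, 41.5 and 41.5 CPM in the control libraries and 56.6, 58.8 and 60.6 CPM in the knockdown libraries, a rise of 0.53 ± 0.067, while MCL1 and BCL2L1, protectors of mitochondria, did not pass (-0.022 ± 0.057 and 0.0068 ± 0.057). Among caspases and death receptors 7 rose and 4 fell of 23: CASP8, an initiator caspase, rose by 0.65 ± 0.072, and TNFRSF21, death receptor 6, fell by 0.70 ± 0.051. The count of death genes that fell was 1 without the third control library and 2 without the second, without the first or the second knockdown library, with thinned counts and in DESeq2.

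Most metabolic and stress-adaptation lists had more members that fell than rose. In the list of integrated stress response and unfolded protein genes 3 rose and 17 fell of 31 tested members, with a median log2 fold change of -0.20 and a median level of 6.69 on the log2 CPM scale. DDIT3, which encodes the stress factor CHOP, had 135, 136 and 134 CPM in the control libraries and 72.9, 73.2 and 71.0 CPM in the knockdown libraries, and PPP1R15A, which restores translation after stress, had 117, 126 and 117 CPM in the control libraries and 66.1, 62.6 and 53.2 CPM in the knockdown libraries. Both were lower in every knockdown library, by 0.90 ± 0.055 and 0.98 ± 0.071, and ATF4, the factor above them, fell by 0.19 ± 0.048. In hypoxia and glycolysis, whose median level was 7.65 on the log2 CPM scale, 4 rose and 23 fell of 33 tested members, with a median log2 fold change of -0.33. CA12, a carbonic anhydrase, NDRG1, a hypoxia-induced stress protein, and ADM, the peptide adrenomedullin, fell by 0.93 ± 0.058, 0.90 ± 0.084 and 0.91 ± 0.093. SLC2A3, a glucose transporter, rose from 0.558 ± 0.130 to 4.70 ± 0.159 CPM, against its list. At that control level SLC2A3 can pass the expression filter through knockdown libraries alone, so its rise and its place in the count are linked. SLC2A1, the main transporter, did not pass (0.12 ± 0.085, adjusted p = 0.269). Of cholesterol and fatty acid genes, whose median level was 7.20 on the log2 CPM scale with 13 of 32 above 8, 3 rose and 14 fell of 32, with SREBF2, a transcription factor of the pathway, down by 0.40 ± 0.06. NRF2 targets were split: NQO1, a quinone reductase, had 948, 997 and 954 CPM in the control libraries and 2061, 2029.7 and 1986 CPM in the knockdown libraries, while HMOX1, haem oxygenase, had 839, 818 and 841 CPM in the control libraries and 417, 403 and 380.3 CPM in the knockdown libraries. All NQO1 values rose and all HMOX1 values fell, with log2 fold changes of 1.07 ± 0.043 and -1.06 ± 0.049, and of 25 members 4 rose and 8 fell at a median level of 7.05 on the log2 CPM scale. The count of NRF2 members that rose was 2 without the first or the third control library, without the first knockdown library and in the fit of the 2 groups alone. In the lysosome and autophagy list, at a median level of 6.83, 2 rose and 10 fell of 29, 41.4% called and so near the 38.3% over all genes. NPC1, which exports cholesterol from lysosomes, fell from 362 ± 12.2 to 153 ± 1.90 CPM, and CTSL and CTSB, lysosomal proteases, fell by 0.77 ± 0.044 and 0.69 ± 0.043. The count of lysosome members that rose was 0 without the second knockdown library and 1 without the first, or without the first or the third control library. Of ABC transporters 3 rose and 1 fell of 18, 22.2% called beside 38.3% over all genes. ABCB1, the pump known to export olaparib, had 0 counts in the control and 1 in the knockdown libraries. The count of ABC transporters that fell was 2 or 3 without the first knockdown library with olaparib or the second or the third with DMSO, with no filter on low counts and in the fit of the 2 groups alone. Cytosolic ribosomal protein genes fell in 30 of 46 and rose in 0, by a median of -0.16, the largest being RPL28 (-0.37 ± 0.047); their median level was 9.91 on the log2 CPM scale, 45 lie above 8, and their reads may be shared with pseudogenes.

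Few markers of other cell types were measurable. CD68, a lysosomal protein used as a macrophage marker, fell from 55.1 ± 4.55 to 22.1 ± 1.90 CPM, and TEK, an endothelial receptor, rose from 0.360 ± 0.0910 to 2.504 ± 0.461 CPM. At that control level TEK can pass the expression filter through knockdown libraries alone, so its rise and its being tested are linked. PTPRC, the pan-leukocyte marker, had 14 counts in the control and 23 in the knockdown libraries, and CDH5 and KDR had 0 in all, so the defining markers of blood and endothelial cells were at or near 0. Among luminal markers 3 of 6 rose and 1 fell, with ERBB2, the HER2 receptor, up by 0.22 ± 0.053.

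The same knockdown without the drug gave 1780 higher and 1844 lower genes (14.7% and 15.2%, together 29.9%). The 2 comparisons share no library. Of the genes called under olaparib, 2263 were called in the same direction in DMSO, which is 48.7% of the olaparib calls and 62.4% of the DMSO calls, and 54 were called in opposite directions. A call in 1 condition alone does not show a difference, so the difference of the 2 knockdown effects was tested as an interaction. It passed for 344 genes with a higher and 346 with a lower effect under olaparib, 5.69% of those tested (2.84% and 2.85%). These counts rest on single libraries more than the main comparison does. Without the first control library with olaparib they were 134 and 168, without the second 143 and 179, and without the second knockdown library with olaparib 160 and 183. Without the second control or second knockdown library with DMSO they were 164 and 185 or 201 and 221, without the first control library with DMSO 203 were higher, and without the first knockdown library with olaparib they rose to 524 and 605.

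The interferon list also rose without the drug. In DMSO 29 of 41 list members rose and 0 fell, and the difference passed for 2 higher, among them IFIT2, and 1 lower, LGALS3BP (-0.59), a secreted glycoprotein outside the rule for named genes. IFIT2 rose by 3.96 under olaparib and 2.96 in DMSO, a difference of 1.00 ± 0.17 (adjusted p = 0.00279), and it was the largest positive difference among well-expressed genes. The other large positive differences were those of ATAD5, which unloads the PCNA clamp (0.98), CCDC18, a coiled-coil protein (0.90), CENPE (0.88), FAM72B (0.85), whose reads may be shared with near-identical copies, and SLC7A11, the cystine transporter (0.80). The calls for CENPE, CCDC18 and LGALS3BP were lost when the first or the second control library with olaparib was left out. The CENPE and LGALS3BP calls were also lost without the second knockdown library with DMSO, and that of CENPE without the third, without the first control library with DMSO and without the second knockdown library with olaparib. With no filter on low counts the CENPE call was lost, and with thinned counts those of CCDC18 and LGALS3BP.

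Of all lists, the mitotic list had the most members whose change differed between the conditions. In DMSO 0 members rose and 7 fell, against 24 and 3 under olaparib, and the difference passed upward for 21 of 46 and downward for 0. Among them TOP2A differed by 0.43 ± 0.089 and KIF15 by 0.58 ± 0.096. The upward count of mitotic genes was 9 without the first and 8 without the second control library with olaparib, and 10 without the second knockdown library with olaparib. It was 7 without the first and 11 without the second control library with DMSO, and 13 without the second knockdown library with DMSO. For homologous recombination the difference passed upward for 7 members and downward for 0, among them BRCA1 (0.59 ± 0.098, adjusted p = 0.00189) and RAD54B (0.54 ± 0.11). It passed upward for 4 without the first control library with olaparib and for 12 without the first knockdown library with olaparib. POLQ differed by 0.68 ± 0.13.

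Feedback and YAP genes shifted the other way. The difference was lower for 9 of 27 MAP kinase feedback genes and higher for 0, and lower for 7 of 26 YAP and TEAD genes and higher for 1. The higher YAP call was lost without the first control library with olaparib. DUSP1 differed by -0.999 ± 0.11, DUSP5 by -0.41 ± 0.09, MYC by -0.39 ± 0.07 and CTGF by -1.06 ± 0.087. CTGF stood at 137 CPM in control and 127 CPM in knockdown cells with DMSO, below both olaparib groups. TXNIP, an inhibitor of thioredoxin and of glucose uptake, had 56.0, 63.8 and 60.2 CPM in the control libraries and 33.9, 34.1 and 38.4 CPM in the knockdown libraries under olaparib. In DMSO it had 9.12, 11.1 and 11.1 CPM in the control libraries and 20.3, 21.5 and 19.6 CPM in the knockdown libraries. It fell with the drug and rose without it, the largest negative difference among well-expressed genes (-1.73 ± 0.12, adjusted p = 1.13e-07). CITED4 differed by -1.61 ± 0.31, PPP1R3B by -1.09 ± 0.18, GADD45A by -1.03 ± 0.15 and JUN itself by -0.57 ± 0.14 (adjusted p = 0.0267). The call for JUN was lost without any 1 of 7 libraries: each control library with olaparib, the first or the third control library with DMSO, or the second knockdown library of either treatment. It was also lost with no filter on low counts.

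**Figure D4:**
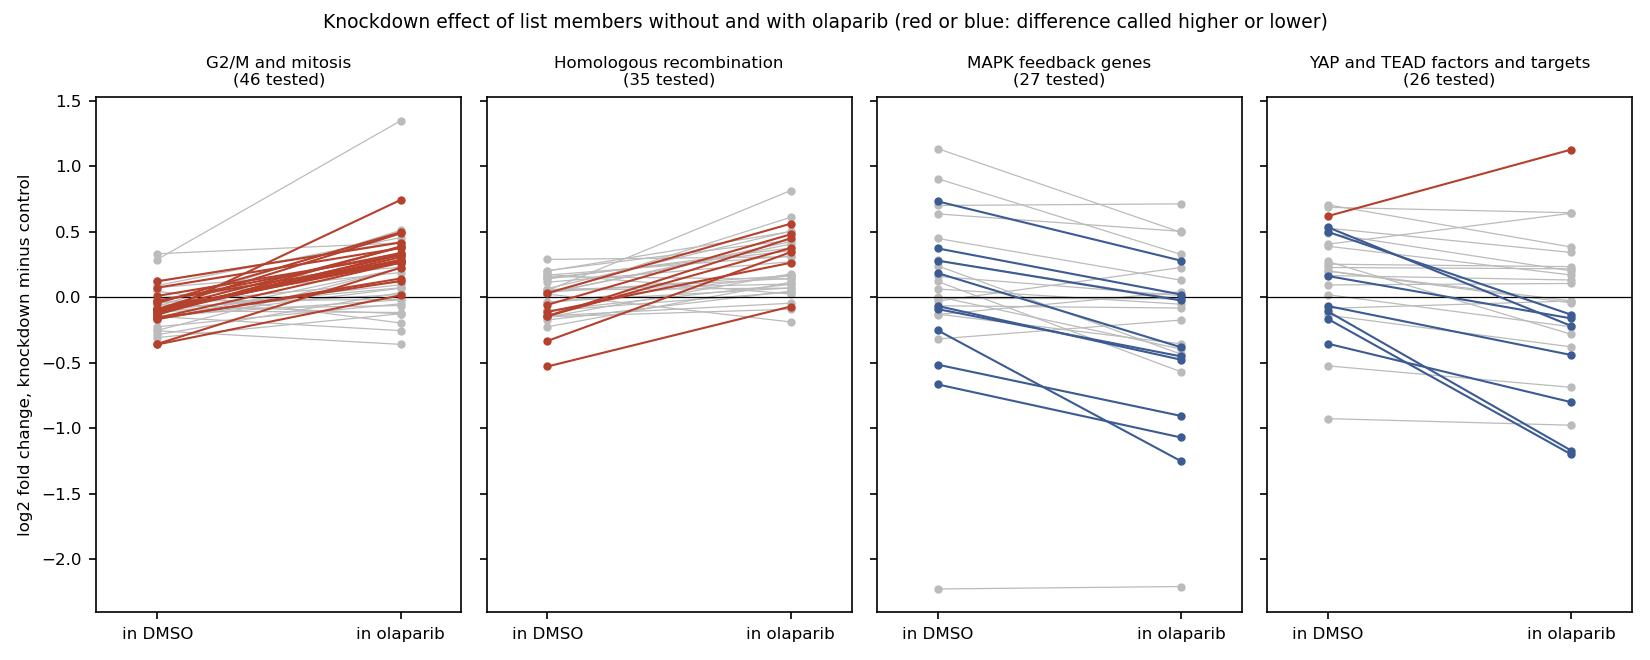
Lines join the log2 fold change of knockdown over control in DMSO (left) and in olaparib (right) for each tested member of 4 lists; red lines mark a difference called higher under olaparib and blue lines one called lower. Red lines appear in the G2/M and homologous recombination panels (21 and 7 members) and blue lines the MAPK and YAP panels (9 and 7 members, with 1 red line in the latter).

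**Figure D5:**
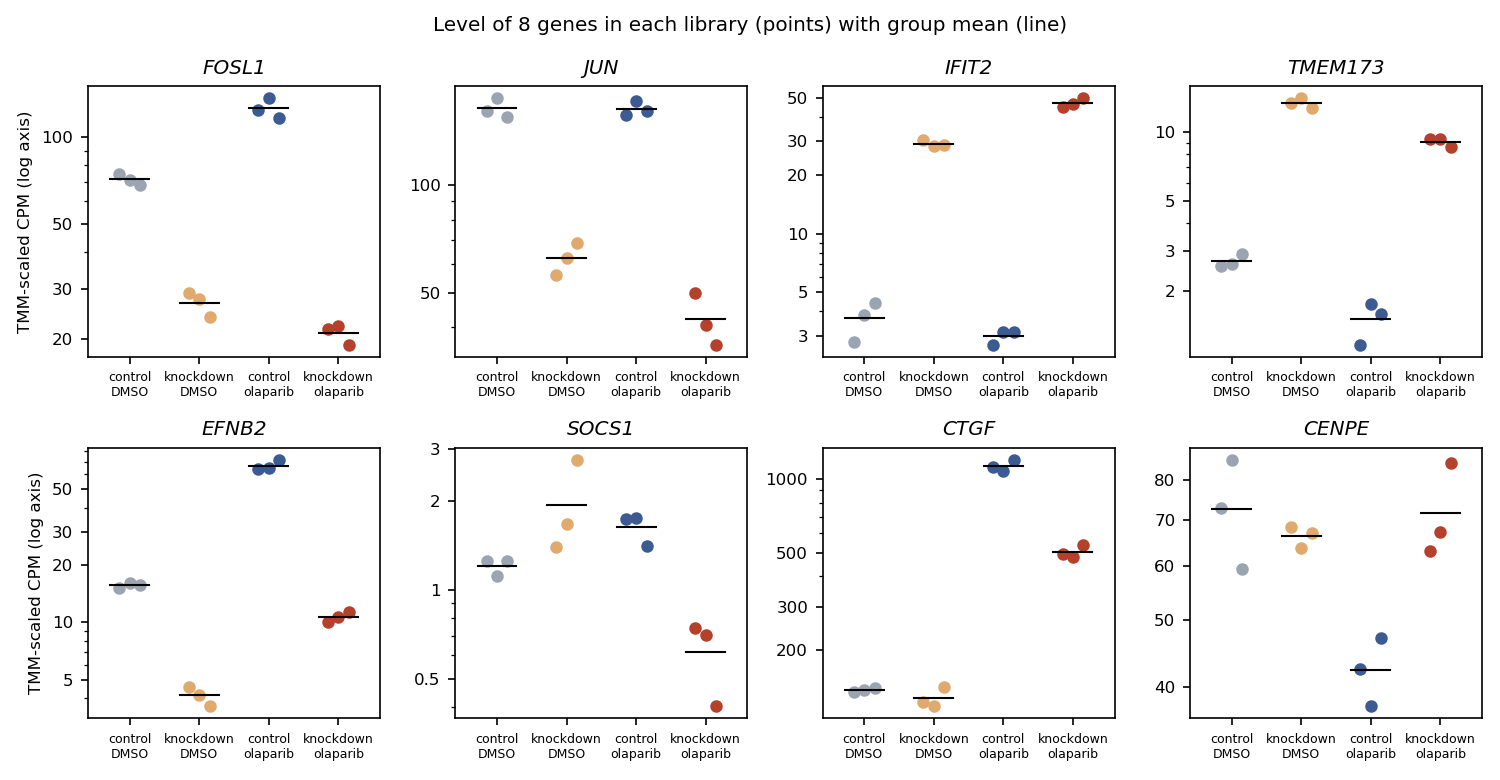
Points give the TMM-scaled CPM of 8 genes in each of 12 libraries on a log axis, by group, and lines the group means. IFIT2 and TMEM173 are high in the knockdown groups with and without the drug, EFNB2 and CTGF are highest in control cells with olaparib, and CENPE is lowest there.

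The authors deposited their own table for this contrast, with 12106 genes, of which 12092 were tested here. There, in the authors' deposited table, 2398 genes rose and 2390 fell at a false discovery rate under 0.05. Among the genes in both tables, 2287 and 2309 were called in the same direction here and 0 in the opposite direction, 186 were called in the authors' deposited table only and 44 here only. Another 6 calls of the authors' deposited table lay on genes that were not tested here.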

How the data were processed

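RNA-seq libraries of BT549 cells were made from total RNA, per the labels' protocols, and the submitters' processing notes name bcl2fastq 2.20.0.422. Per the file headers, the authors deposited raw counts per gene with each gene's Entrez identifier, symbol and length, and a table of log2 fold changes with p-values adjusted as false discovery rates. Not given in the sources used here are the aligner, counting rule, strand setting and build. The deposited log2 CPM and RPKM scalings were left unused. Of 51 rows without a symbol, holding 0.00223% to 0.00311% of a library, 4 were tested and none is named.

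Samples were grouped by their labels. A quasi-likelihood model was fitted in edgeR 4.0.16 to the 12 libraries in 4 groups with TMM factors, for 12122 genes with CPM over 1 in at least 3 libraries, with an F test for each contrast. The p-values were adjusted by Benjamini-Hochberg over all 12122 genes. Standard errors follow from the F statistic. The biological coefficient of variation was 6.1%, with 8 residual degrees of freedom. A mean CPM carries the SD of 3 libraries.

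The members and the 40 gene lists (1155 entries, 951 tested) were chosen with earlier results of these data known. The lists were described by counts and medians and not tested. Named genes are FOSL1 and JUN, the 12 largest rises and 12 largest falls at an average log2 CPM of at least 3 without overlap between groups, the 3 largest of each below that level, the 6 largest differences in each direction, and in each list up to 6 called members with the largest change and preset anchor genes. IFITM3, FOSL2, LGALS3BP, the genes under other observations, the promoter of IFIT1 and list members named to spell out a small count were chosen after their values were seen. Promoters are RefSeq entries of GRCh38.p14, matched for 9856 tested genes, with the first listed start used. Alternatives were DESeq2 1.42.0, its size factors, no filter on low counts, the 2 groups alone, a replicate block, thinned counts and leaving out each library. Some genes that the rule names are not reported here.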

Additional observations from a re-analysis of the deposited data

Results flagged for a closer look

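The effect of the knockdown differed between olaparib and DMSO, by the interaction test, for 344 genes in the higher and 346 in the lower direction. Among the genes whose difference is given above, 11 had a higher effect under olaparib: on the log2 scale the difference was 1.00 for IFIT2, 0.98 for ATAD5, 0.90 for CCDC18, 0.88 for CENPE, 0.85 for FAM72B, 0.80 for SLC7A11, 0.68 for POLQ, 0.59 for BRCA1, 0.58 for KIF15, 0.54 for RAD54B and 0.43 for TOP2A. The other 12 had a lower effect under olaparib, with differences of -2.08 for SOCS1, -1.73 for TXNIP, -1.61 for CITED4, -1.14 for FOSL1, -1.09 for PPP1R3B, -1.06 for CTGF, -1.03 for GADD45A, -0.999 for DUSP1, -0.59 for LGALS3BP, -0.57 for JUN, -0.41 for DUSP5 and -0.39 for MYC. The knockdown lowered SOCS1 and TXNIP with the drug and raised them without it, at an adjusted p under 0.05 in each. Of these 23 differences 19 kept an adjusted p under 0.05 in all alternatives that gave one. The others were CCDC18, which missed it in 3 of 17 alternatives with adjusted p values of 6.39e-04 to 0.0951, LGALS3BP, which missed it in 4 of 17 alternatives with adjusted p values of 0.0143 to 0.0654, CENPE, which missed it in 8 of 17 alternatives with adjusted p values of 5.09e-05 to 0.0885 and JUN, which missed it in 9 of 17 alternatives with adjusted p values of 7.96e-04 to 0.0796. The SOCS1 difference, counted among the 19, had an adjusted p in only 16 of the 17 alternatives. The differences rest on all 4 groups, and their causes were not tested.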

How the results depend on the processing

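With all libraries kept and another setting tried, every count for the 3 comparisons stayed within 1.5 times its value and FOSL1 and JUN kept their falls. Counting only the groups compared left 4462 of the 4643 olaparib calls, and DESeq2 left 4224. Same-numbered control and knockdown libraries deviated together only weakly: their correlations were 0.0574, 0.0304 and 0.196 with olaparib and -0.0882, -0.0594 and -0.212 with DMSO, so the numbers were not taken as pairs, and not every library correlated best with its own number. With the replicate block, 2234 genes rose and 2293 fell under olaparib, 350 changed at least 2-fold, 303 had a higher and 306 a lower difference, and 4426 of the 4643 calls were shared. The block ended the calls of the JUN and CENPE differences. Thinning all libraries to the smallest total gave 2018 higher and 2139 lower genes and differences of 271 and 277, fewer than at full depth, with 383 genes at least 2-fold, more than at full depth. Leaving out 1 library gave 1779 to 2410 higher genes, 1881 to 2444 lower genes and 342 to 368 genes changed at least 2-fold under olaparib. In DMSO it gave 1353 to 1951 higher, 1440 to 1988 lower and 269 to 306 genes at least 2-fold. The difference passed upward for 134 to 524 genes and downward for 168 to 605, and the cause was not tested. FOSL1 ranged from -2.62 to -2.50 and JUN from -2.08 to -1.87. Members higher ranged from 31 to 34 for the interferon list, 22 to 28 for G2/M, 14 to 23 for replication and 16 to 19 for homologous recombination. Members lower ranged from 11 to 14 for the AP-1 family, 14 to 15 for mesenchymal genes, 16 to 18 for the stress response, 22 to 25 for hypoxia and 22 to 32 for ribosomal proteins, and stayed at 18 for contractile genes. Genes with few reads, such as OAS2 and HERC6, have folds that depend on the prior count.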

Other observations

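Several abundant genes outside the lists changed, and all in this paragraph were chosen after their values were seen. SDC4, a heparan sulphate proteoglycan of focal adhesions, had 356, 373 and 369 CPM in the control libraries and 129, 137 and 136 CPM in the knockdown libraries, and CDCP1, a membrane substrate of SRC kinases, had 563, 528 and 518 CPM in the control libraries and 218, 219 and 211 CPM in the knockdown libraries. TMEM158, a membrane protein induced by RAS, fell from 306 ± 6.15 to 110.2 ± 15.3 CPM, IGFBP5, a carrier of insulin-like growth factors, fell from 371 ± 16.8 to 164 ± 3.87 CPM, and NOLC1, a nucleolar phosphoprotein, fell from 399 ± 10.96 to 162 ± 1.66 CPM. No knockdown library of SDC4 or CDCP1 reached any control library, and the log2 fold changes of these 5 genes lay between -1.47 and -1.18. In the other direction THBS1, the matricellular thrombospondin, had 896, 887 and 905 CPM in the control libraries and 1399, 1418 and 1512 CPM in the knockdown libraries. ALDH7A1, an aldehyde dehydrogenase, rose from 109 ± 1.60 to 199 ± 4.10 CPM, and GNG11, a G-protein gamma subunit, rose from 155 ± 7.05 to 242 ± 2.499 CPM. Their log2 fold changes were 0.69 ± 0.043, 0.87 ± 0.048 and 0.64 ± 0.062 by edgeR's quasi-likelihood test, with adjusted p of 3.73e-10, 4.51e-11 and 1.45e-07. No control library of THBS1 reached any knockdown library.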
